A study of Mus musculus with 2 samples.

Results

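The Malat1 and Neat1 locus is a stretch of mouse chromosome 19 that carries a pair of neighbouring genes for long noncoding RNAs. Its Zfp217 peaks were taken as every peak of the deposited list that overlaps the window from 5780000 to 5860000 on chromosome 19 of the build mm9. They numbered 16 of the 18737 peaks in the list and 16 of the 601 on chromosome 19. Malat1 was placed at about 5795000 to 5803000 and Neat1 at about 5824000 to 5846000. These bounds are rounded to 1 kb, and no annotation of mm9 was used to refine them. The locus was chosen by its number of peaks and their widths in this same list, so these are given as a description, with no test.

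The peaks come from ChIP-seq, in which DNA bound by a protein is precipitated with an antibody and sequenced. The cells were of the line CCE, mouse embryonic stem cells that the labels describe as cultured feeder-free with fetal bovine serum and LIF, a factor that keeps such cells undifferentiated. The series holds 1 library precipitated with a Zfp217 antibody and 1 input library, both from untreated cells of this line. The list gives positions only, with no height, score or fold enrichment and no value of the input, so read depth is unknown and the spread between replicates could not be measured. It holds no expression values, so neither the cell type nor the level of either RNA could be checked in it.

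Malat1 is an abundant RNA that stays in the nucleus and gathers at nuclear speckles, bodies rich in splicing factors. Its transcript is cut near its 3′ end, which frees a small tRNA-like RNA named mascRNA and leaves a 3′ end protected by a triple helix. Neat1 is the RNA scaffold of the paraspeckle, another nuclear body, and is made as a short and a long form that begin at the same start site. In the mouse both genes are transcribed toward lower coordinates, so the upper end of each span is its 5′ end. Zfp217 is a zinc finger protein known from corepressor complexes with CoREST and CtBP, and the title of the series ties it to m6A, a methyl mark on RNA.

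In the RefSeq gene table of GRCm38.p6, the next gene on the upper side of Neat1 is the protein-coding gene Frmd8. Mascrna is the only entry that follows Malat1 before Neat1 when that table is ordered by start coordinate. Such an order also places an entry that lies within Malat1 after it, so it does not put Mascrna between the spans. Genes on the lower side of Malat1 were not listed. Both Malat1 and Neat1 were matched in the table by symbol. Peaks lay at the 5′ ends of both spans, as described further on, so promoters were looked up in the RefSeq promoter table, where 1 of the 2 genes, Malat1, was matched, and Neat1 was not. The Malat1 promoter is given from GRCm38.p6, read 5′ to 3′ on the minus strand, with 250 bases before the start in lower case and the 50 bases from the start onward in capitals.
Malat1: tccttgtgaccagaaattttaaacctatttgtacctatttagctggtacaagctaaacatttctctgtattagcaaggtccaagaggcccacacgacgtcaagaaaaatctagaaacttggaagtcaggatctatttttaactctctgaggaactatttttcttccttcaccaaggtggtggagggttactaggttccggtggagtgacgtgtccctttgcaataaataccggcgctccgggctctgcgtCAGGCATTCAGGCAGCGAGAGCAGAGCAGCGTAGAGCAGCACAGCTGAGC

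This stretch has a GC content of 47.0%, against a median of 52.7% over 32851 RefSeq promoters of the same length, and 28.4% of them had a lower one. It holds 10 CG dinucleotides, against a median of 7, and 56.5% of the promoters held fewer. The letters CAGAAC and CAGAAT, a core reported for the human protein ZNF217, were searched on both strands. Neither occurs in these 300 bases. Of all promoters of this length, 18.2% hold CAGAAC, 16.3% hold CAGAAT and 31.2% hold at least 1 of them, so most hold neither. These letters belong to another build than the peaks and were not laid over them base by base.

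Along Malat1 the peaks covered most of the gene, and along Neat1 they covered only its 5′ part. The Malat1 span of 8 kb was overlapped by 6 peaks that covered 4630 bp, or 57.9% of it. The Neat1 span of 22 kb was overlapped by 3 peaks that covered 1979 bp, or 9.0%. The covered share of Malat1 was 6.43 times that of Neat1, and its number of peaks per kb was 5.5 times as high (0.75 against 0.136). Malat1 thus held 50.6% of all bases inside peaks in the window and Neat1 21.6%. Of the remaining peaks, 5 lay between the spans and 2 above Neat1. No peak lay wholly in the 15 kb of the window below Malat1.

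**Figure D1:**
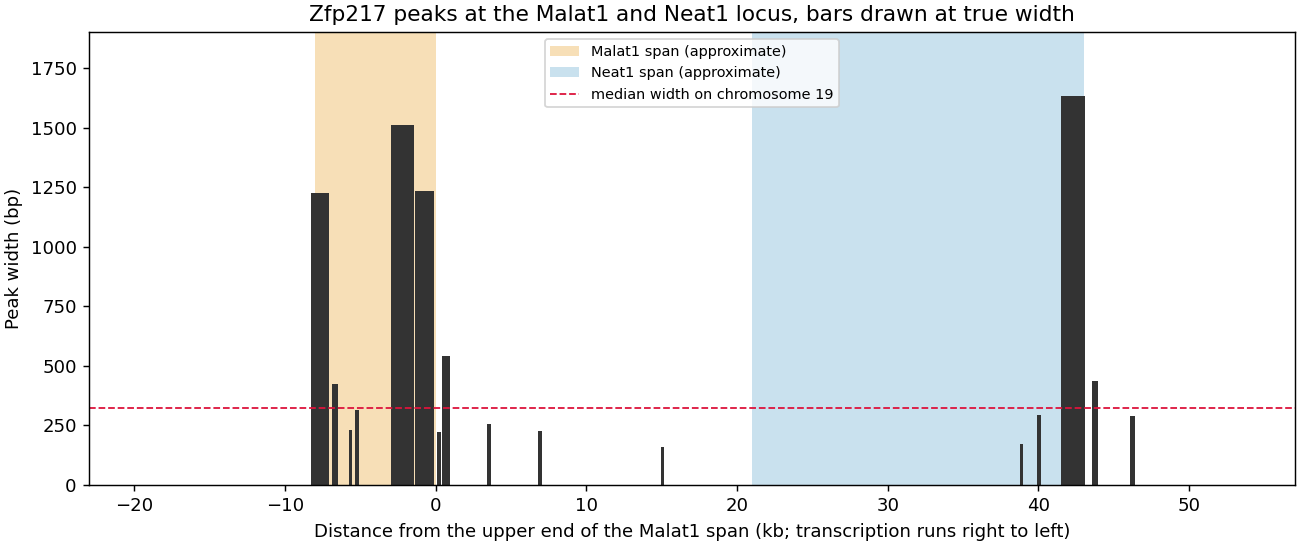
Peaks of the 80 kb window by distance from the upper end of the Malat1 span in kb (horizontal) and by width in bp (vertical), each bar drawn at its true width. The shaded areas are the approximate spans, and the dashed line is the median width on chromosome 19, 323 bp. The 4 bars above 1000 bp stand at both ends of Malat1 and at the 5′ end of Neat1.

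At the 5′ end of Malat1, a pair of wide peaks lay 119 bp apart. The first ran from 5800022 to 5801533 and had a width of 1512 bp. The second ran from 5801653 to 5802885, had a width of 1233 bp and ended 115 bp short of the upper bound of the span. Because the bounds are rounded to 1 kb, distances this short, here and below, do not place a peak against the true gene end. Above the upper bound came a narrow peak of 223 bp from 5803096 to 5803318, 210 bp from its neighbour, and then a peak of 540 bp from 5803394 to 5803933. These 4 peaks formed 1 run of 3912 bp with gaps of at most 210 bp, and 89.7% of the run lay inside peaks. Measured in steps of 1 kb from the upper end, the opening 3 kb of Malat1 were covered to 88.5%, 88.1% and 97.9%.

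The middle of Malat1 was empty. No peak lay between 5797935 and 5800021, a stretch of 2087 bp or 26.1% of the span. Toward the 3′ end the peaks resumed as a second run of 4, from 5794696 to 5797934. It held peaks of 314 bp, 228 bp and 424 bp, followed by one of 1224 bp from 5794696 to 5795919. That wide peak lay across the lower bound of the span, with 919 bp inside and 305 bp beyond it. It was thus the 3′ end of the span, the side from which mascRNA is released, that carried the third wide peak of Malat1. The lowest 1 kb of the span was covered to 91.9%. Coverage of Malat1 was therefore high at both ends, with 5 of its 8 bins of 1 kb covered to at least 50% and 2 bins without any peak.

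Neat1 showed a different layout. Its 5′ end carried the widest peak of chromosome 19, 1631 bp from 5844488 to 5846118, which lay across the upper bound with 1513 bp inside the span and 118 bp beyond it. The other members of the span were a peak of 294 bp from 5842907 to 5843200 and one of 172 bp from 5841790 to 5841961. All 3 began within 4211 bp of the upper end, the end at which both forms of the RNA start. The rest of the gene, 17.8 kb from 5824001 to 5841789, held no peak. That empty part made up 80.9% of the span.

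Coverage of Neat1 was highest at its upper end. It was 100% in the 1 kb there, then 51.3%, 20%, 9.4% and 17.2%, and 0 in each of the other 17 bins. Over the upper 5 kb of each gene the difference between them was smaller, with 39.6% covered in Neat1 and 54.9% in Malat1. Over the rest of each span, Malat1 had 62.8% of 3 kb covered and Neat1 had none of 17 kb.

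**Figure D2:**
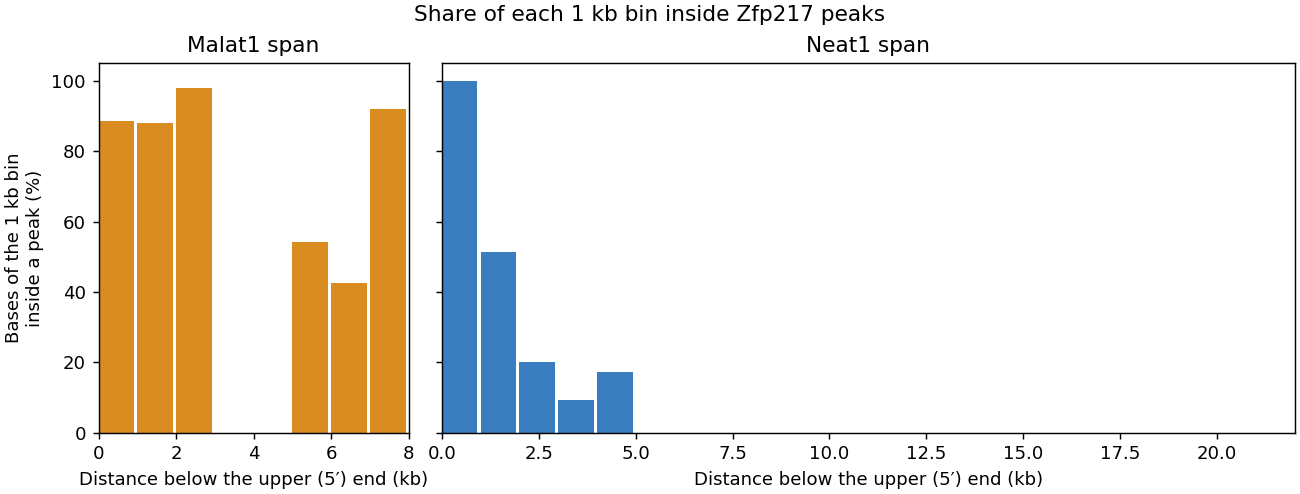
Percent of each 1 kb bin that lies inside a peak (vertical) by distance below the upper end of the span in kb (horizontal), for Malat1 (left) and Neat1 (right). Malat1 has 6 of 8 bins with peak bases, at both ends of the span, and Neat1 has 5 of 22, all next to its upper end.

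Outside the spans the peaks were mostly narrow. Between the genes, beyond the 223 bp and 540 bp peaks next to Malat1, lay peaks of 253 bp from 5806394 to 5806646, 226 bp from 5809805 to 5810030 and 157 bp from 5817977 to 5818133. The last has the narrowest width found in the whole list. Their distance to the next peak grew along this stretch, from 3158 bp to 7946 bp and then to 23656 bp across the empty part of Neat1. Above Neat1 lay a peak of 436 bp from 5846523 to 5846958, 404 bp from the widest peak, and one of 287 bp from 5849091 to 5849377.

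The edges of the window did not cut through a group of peaks. The lowest peak inside was the 1224 bp peak of Malat1, and the nearest outside on that side, 448 bp wide from 5771174 to 5771621, lay 23074 bp below it. The highest peak inside was the 287 bp peak, and the nearest outside above it, 531 bp wide from 5875012 to 5875542, lay 25634 bp away.

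The widths in the locus fell into a narrow and a wide set. Of the 16 peaks, 12 measured between 157 and 540 bp and 4 measured between 1224 and 1631 bp, with none in between. On chromosome 19, 0.998% of peaks were at least 1000 bp wide, 6 of 601, and in the whole list 1.04%, 195 of 18737. The 4 wide peaks of the locus were the 4 widest on chromosome 19, followed by peaks of 1191 and 1003 bp elsewhere on it. From 700 bp the locus still held 4 wide peaks, while 6.16% of the peaks of chromosome 19, 4.7% of the list and 9.09% of the rest of the megabase reached that width. In the whole list the 4 wide peaks ranked 38, 48, 93 and 98 by width. They held 61.2% of the bases inside peaks at the locus, where peaks of that width held 1.0% over the rest of chromosome 19.

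The median width did not stand apart in this way. At the locus it came to 304 bp (95% order-statistic interval 226 to 1224, 16 peaks), against 323 bp (309 to 343) over the rest of chromosome 19. In the rest of the megabase from 5000000 to 6000000, which held 44 peaks outside the window, the median was 407 bp (323 to 506). The widest peak there was 858 bp. Of these 44 peaks, 0 reached 1000 bp. The interval for the locus is broad because it spans both sets of widths.

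**Figure D3:**
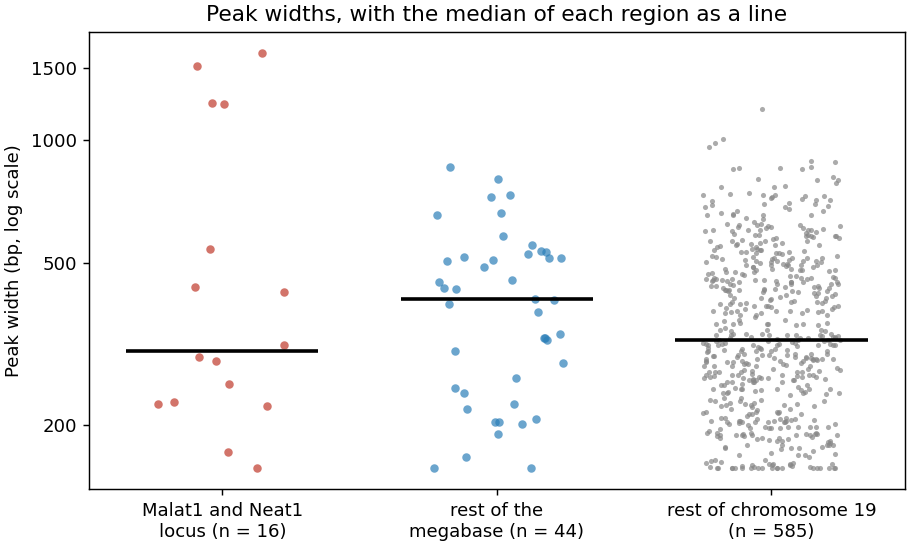
Peak width in bp on a log axis (vertical) for the 16 peaks of the locus, the 44 of the rest of its megabase and the 585 of the rest of chromosome 19, which include those 44; each point is a peak and each line a median. The 4 points from 1224 bp upward all belong to the locus, while the medians, 304, 407 and 323 bp, lie close together.

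The peaks of the locus were also close together. The gap from the end of a peak to the start of the next had a median of 945 bp (95% interval 176 to 2460, 15 gaps), against 24968 bp over the rest of chromosome 19 and 13.2 kb in the rest of the megabase. Of the 15 gaps, 6 were at most 500 bp, or 40.0%, where 13.7% of the neighbouring pairs on chromosome 19, 11.9% in the list and 7.14% in the rest of the megabase were that close. The smallest, 75 bp, separated the 223 bp and 540 bp peaks just above Malat1. Of these 6 close pairs, 5 lay at Malat1 and 1 at the 5′ end of Neat1. Joined wherever at most 1000 bp apart, the 16 peaks became 8 regions, with 2 at Malat1 and a median gap of 2460 bp.

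Peak density at the locus was 200.0 per Mb (95% Poisson interval 114 to 325), against 9.57 (8.81 to 10.4) over the rest of chromosome 19, a ratio of 20.9. The megabase around it was itself dense, with 47.8 peaks per Mb (34.8 to 64.2), and against that background the ratio was 4.18. The intervals cover counting error only and take peaks as independent, which close neighbours are not. By bases inside peaks the locus stood further apart, at 11.4% covered against 0.357% over the rest of chromosome 19, a ratio of 32.0. Against 1.97% in the rest of the megabase the ratio was 5.8.

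Chromosome 19 was divided into windows of 80 kb laid out from the locus. Of the 723 other windows between its first and last peak, 0 held as many peaks as the locus, and 0 held as many covered bases. A total of 461 of them (63.8%) held no peak. The next highest, from 6980000 to 7060000, held 12 peaks that covered 4834 bp, against 16 peaks and 9154 bp at the locus.

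Set against windows of their own length, the genes differed in rank. The other windows left out only the span in question, so some of them lay within the locus itself. For Malat1, 1 of 7242 other windows of 8 kb (0.0138%) held at least 6 peaks, and 0 had as many covered bases. The highest covered 2554 bp, against 4630 bp in Malat1, and was the window of the same locus at the 5′ end of Neat1. For Neat1, 39 of 2632 other windows of 22 kb (1.48%) held at least 3 peaks and 5 (0.19%) covered at least 1979 bp. The highest of these covered 4050 bp and was the window of the locus that holds most of the Malat1 span. The window between it and the Neat1 span was also among these 5. Both were among the 39 as well, so these counts are not all from outside the locus. Malat1 was thus the gene with the higher rank in both measures.

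**Figure D4:**
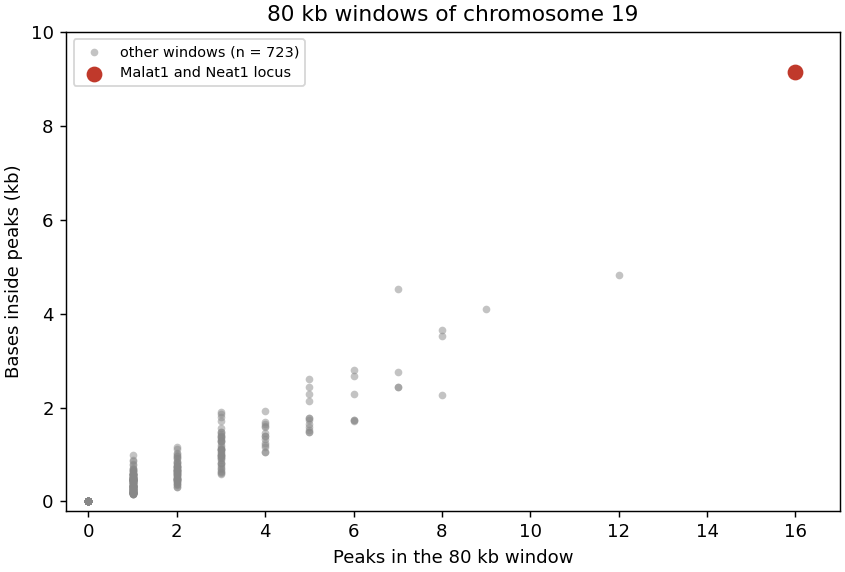
Number of peaks (horizontal) and bases inside peaks in kb (vertical) in windows of 80 kb on chromosome 19; each grey point is 1 of 723 other windows and the red point is the locus. The locus, with 16 peaks and 9154 bp, lies above all other windows, of which the highest has 12 peaks and 4834 bp.

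Across the genome, few places held wide peaks as close together as Malat1, where 3 peaks of at least 1000 bp lay within 8190 bp. This count was chosen after the widths were seen. In the whole list, 6 groups of at least 3 such peaks that did not overlap each other fitted into a stretch of that length. They lay on 3 chromosomes. Of these groups, 4 lay side by side at the start of chromosome 9, between 2999995 and 3035522. One of those ended at 3017623 and the next began at 3017720, so the 4 are not distant places. Of the others, 1 was on chromosome 13 from 23662106 to 23668669, and 1 was Malat1 itself.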

How the data were processed

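The authors deposited 1 peak list for the series, with chromosome, start, end and peak name as its 4 columns. MACS2, Bowtie2 and CASAVA 1.4 are named with the build mm9 in the submitters' processing notes, with no role or setting. The calling threshold, like the role of the input, is not given in the sources used here. Starts, counted from 0 in the list, are printed counted from 1. The window and the approximate gene bounds were given with the choice of locus. The locus and the values described were chosen with earlier results of these data known. Every peak that overlaps the window was kept. Named are those on either gene span, the widest, those at the window's edges, and runs of 3 or more peaks no further than 1000 bp apart; the others were added for completeness. Chromosome length was taken as the last peak end. Counts, coverage, gaps and windows were computed with scipy 1.17.1, pandas 2.3.3 and numpy 2.4.6 in Python 3.11.15, drawn with matplotlib 3.10.9, and tested on simulated data. Intervals are exact Poisson or order-statistic intervals. GRCm38.p6 tables served for gene order and promoter letters only. Alternatives were merging, wider peaks, extended spans and other backgrounds.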

Additional observations from a re-analysis of the deposited data

How the results depend on the processing

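Of 33 alternative values, 27 stayed within the limits set for them (1.5 times for a count or coverage, the 95% interval for a median or the density ratio), 6 moved and none reversed. The number of peaks at the locus fell from 16 to 10 and 8 when peaks within 500 and 1000 bp were merged, and to 7 among the wider 50% of the list. Along Malat1, merging within 1000 bp left 2 of 6 peaks, while coverage ran from 47.5% to 73.9% over its alternatives. Along Neat1, 1 of 3 peaks belonged to the wider 50%, and coverage ran from 6.88% to 13.3%. The density ratio was 4.18 against the rest of the megabase and between 12.5 and 19.8 under the other alternatives. The median width rose to 849 bp after merging, inside its broad interval, and to 1224 bp among the wider 50%, the upper limit of that interval. The median gap of 945 bp became 2460 bp after merging, the upper limit of its interval, 1490 bp between midpoints and 456 bp among the wider 50%. No other 80 kb window of chromosome 19 held as many peaks with windows shifted by 50% of their length or with peaks merged. A wide peak taken from 700 bp, an alternative added after the data were seen, again gave 4 at the locus. There was no replicate to leave out. No paired analysis was possible because each group has 1 library and the list holds no values per library. Without depth, a stretch without peaks cannot be told from one with too few reads.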
